A study of Mus musculus with 8 samples.

Results

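The CCN proteins and the thrombospondins are matricellular proteins: they are secreted into the extracellular matrix, where they signal to cells rather than bear load. CCN proteins are built from a shared set of modules that bind growth factors, integrins and heparan sulfate. Thrombospondins assemble into oligomers and bind cell surface receptors such as CD36 and CD47. Several of these genes are widely used readouts of the YAP-TEAD, SRF and TGF-beta pathways, and in fat tissue they are known from progenitors, fibroblasts and fibrosis more than from lipid-filled adipocytes. The listed members were 8 genes of 22962 in the deposited table, namely the CCN genes Ccn1, Ccn2, Ccn3, Ccn4 and Ccn5 and the thrombospondin genes Thbs1, Thbs2 and Thbs3. They were chosen by name as a family, and picked from these libraries with the FPKM difference between DoxSa and DMSO already known. Their fold changes in that contrast are therefore a description. Where a member is said to be called, this gives its place in a fit over all genes and how that place varies with the settings, and it is not evidence from independent data. All 8 passed the minimum of 0.5 FPKM that 12060 genes of the table passed.

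The study compared mouse cells of WT genotype that came from gonadal stromal vascular fraction, the mixed cells of fat other than floating adipocytes, and that the labels type as mature adipocytes. Both groups were differentiated and profiled at day 6, with DMSO (4 libraries) or with DoxSa (4 libraries). The labels used here do not spell out DoxSa or state a dose, an exposure time, a sex or an age, and the series is titled for 1-deoxysphingolipids in adipose tissue. Nothing in the labels says whether replicates were separate cultures or animals, so the spread between libraries may be technical. The totals that scale the FPKM values, recovered from the steps of those values, were 39213008 to 41365861 reads per library. Reads recovered over the genes of the deposited table summed to 39144512 to 41291423 per library, and shares of reads below use these sums.

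Markers of adipocytes, fibroblasts and macrophages were all present, so the transcripts below came from a mixture, and in bulk RNA fewer cells of a type and less RNA per cell cannot be told apart. Adipocyte markers summed to 11510 to 11890 FPKM in DMSO and 11580 to 12220 FPKM in DoxSa, and 0 of 8 were called. Over all tested genes 2.02% were called lower and 3.88% higher in DoxSa. Of the 7 smooth muscle and myofibroblast markers, 6 were called lower in DoxSa, and their sum was 597.5 to 669.3 FPKM in DMSO and 414.0 to 472.2 FPKM in DoxSa. Of 6 tested fibroblast and progenitor markers 1 was called lower, Pdgfrb, and the sum overlapped between groups (1809 to 2082 and 1815 to 2055 FPKM). Dpp4 and Pi16 of that list were too low to be tested, at no more than 0.0841 and 0.252 FPKM in any library. Of 7 macrophage markers 1 was called higher, Ptprc, and the sum again overlapped (5239 to 6119 and 5834 to 6287 FPKM). Each of these sums was mostly 1 gene, with DMSO means of 8698 FPKM for Fabp4 (adipocyte), 1307 for Col1a1 (fibroblast) and 4631 for Lyz2 (macrophage). Endothelial markers summed to at most 2.06 FPKM in any library, and only 1 of 6 was tested. Of 5 mesothelial markers Krt19 alone was tested and was not called. Their sum was lower in DoxSa without overlap (16.77 to 17.29 FPKM in DMSO and 11.57 to 16.17 in DoxSa). That sum was mostly Krt19, with means of 16.49 FPKM in DMSO and 13.88 in DoxSa, and so repeats its values. The other mesothelial markers were too low to be tested, at no more than 0.564 FPKM in any library. No listed marker was at 0 in all 8 libraries. The part of these cell types in the results was not tested.

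Promoter sequence was at hand for 3 of the 8 members, Ccn1, Thbs2 and Thbs3, in the RefSeq promoter table of build GRCm38.p6, whereas the expression values were made with GRCm39. The 250 bases before the start are shown for Ccn1, a member with lower values in DoxSa, and for Thbs2, a member without, so that the pair can be compared. The Ccn1 stretch is chr3:145649986-145650235 and the Thbs2 stretch chr17:14694263-14694512, both on the minus strand. Capitals mark matches to the TEAD core GGAATG or to TATAAA on either strand, which do not overlap one another.
Ccn1: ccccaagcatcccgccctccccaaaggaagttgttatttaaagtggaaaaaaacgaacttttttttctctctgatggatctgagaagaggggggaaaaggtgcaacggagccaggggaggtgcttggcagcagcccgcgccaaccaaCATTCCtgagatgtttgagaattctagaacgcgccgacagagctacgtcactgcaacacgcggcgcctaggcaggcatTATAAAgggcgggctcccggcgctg
Thbs2: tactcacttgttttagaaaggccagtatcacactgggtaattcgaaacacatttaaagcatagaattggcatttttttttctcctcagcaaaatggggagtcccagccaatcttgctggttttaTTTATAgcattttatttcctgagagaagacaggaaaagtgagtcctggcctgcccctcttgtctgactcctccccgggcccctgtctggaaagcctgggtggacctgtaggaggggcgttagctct
The Ccn1 stretch held 1 TEAD core, read on the opposite strand as CATTCC, 103 to 98 bases before the start, and 1 TATAAA at 25 to 20 bases. The Thbs2 stretch held 0 TEAD cores and 1 TATAAA match, on the opposite strand, 126 to 121 bases before the start. Thbs3, whose sequence is not shown, held neither. Of 32851 promoters in the table, 12.6% held a TEAD core and 12.4% a TATAAA in the same window, so neither match is rare. The CArG box bound by SRF (1.47% of promoters), the AP-1 site TGAGTCA (4.46%) and the SMAD palindrome GTCTAGAC (0.167%) were in none of the 3 stretches, and the short SMAD element CAGAC (42.2%) was in Thbs2 alone, at 2 places. A match describes letters, and no factor's binding was measured here.

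The deposited annotation gave all 8 members the terms heparin binding and cell adhesion, and 6 of them, Ccn1 to Ccn5 and Thbs1, integrin binding. Among its pathway labels, Ccn2 stood in Hippo signaling, Ccn4 in Wnt signaling, Thbs1 in TGF-beta signaling and the 3 thrombospondins in ECM-receptor interaction.

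Levels in DMSO do not use the contrast, and FPKM is scaled to gene length, so the members were ranked by it. The spread between libraries does not measure errors that differ between genes, such as those of the length used. Thbs1, the thrombospondin that activates latent TGF-beta, stood far above the rest at 936 ± 33.0 FPKM (SD, n = 4), the place 48 from the top among the tested genes. Its reads were 0.5485% ± 0.01931 of all reads recovered in a DMSO library. Next came Ccn1 at 184 ± 17.0, Ccn2 at 157 ± 5.68, Ccn5 at 139.8 ± 6.10 and Thbs2 at 109 ± 5.22 FPKM. Ccn3 (32.3 ± 4.67), Ccn4 (14.5 ± 0.511) and Thbs3 (5.18 ± 0.485) were lower. The 4 values of each member lay apart from those of its neighbour in this order, although Ccn1 was only 1.175-fold above Ccn2 and Ccn2 1.12-fold above Ccn5. Replicate spread was above the counting error for every member, narrowly so for Thbs3 in DoxSa (4.22% against 3.95%). It was widest for Ccn3, with a coefficient of variation of 14.5% in DMSO and 22.1% in DoxSa where its reads (1143 to 3387 per library) would give 1.79% and 2.47%.

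In DoxSa the order changed in the middle. Thbs1 (671 ± 32.8 FPKM, SD, n = 4) and Ccn1 (152 ± 11.1) kept the first places, but Ccn2 (108 ± 8.74) now stood below Thbs2 (117 ± 6.97) and Ccn5 (114.8 ± 9.79). These last 3 overlapped and have no order beyond their spread. Ccn3 (16.9 ± 3.73) and Ccn4 (10.96 ± 0.7504) also overlapped, which they did not in DMSO. Together the 5 CCN genes summed to 527 ± 23.1 FPKM in DMSO and 403 ± 32.1 in DoxSa, and the 3 thrombospondins to 1051 ± 37.3 and 793 ± 31.3.

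**Figure D1:**
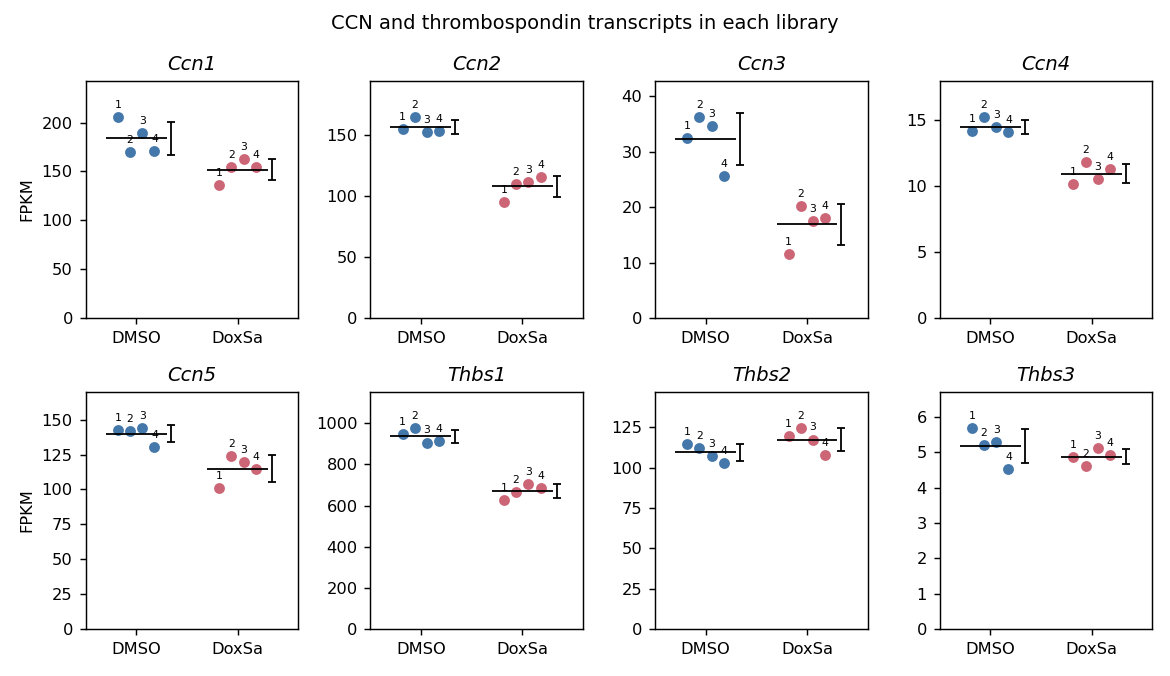
FPKM of the 8 members in each library, 1 panel per gene with its own axis from 0, points numbered by replicate, horizontal lines at group means and error bars of 1 SD (n = 4). In 6 panels all DoxSa points lie below all DMSO points, and for Thbs2 and Thbs3 the groups overlap.

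All 5 CCN genes and Thbs1 were lower in DoxSa, with no overlap between the groups, while Thbs2 and Thbs3 overlapped. In the limma fit across all 12060 genes, a gene was called at a Benjamini-Hochberg adjusted p under 0.05, which 2.02% of the genes met in the lower direction and 3.88% in the higher. Of the 8 members 6 were called lower and 0 higher. Groups without overlap and lower in DoxSa were found for 4.71% of all genes and for the same 6 members. The median log2 difference, on the log2(FPKM + 1) scale, was -0.33 for the members and 0.01 for all tested genes. Since the contrast was known when the members were picked, these shares say nothing further about them. Of all calls 65.7% were higher, a share that fell to 54.9% with quantile normalization, under which the same count of 6 members was called lower.

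Ccn3, formerly Nov, encodes a CCN protein that restrains growth and often opposes CCN2. It had the largest difference of the members. It measured 32.4, 36.2, 34.7 and 25.6 FPKM in DMSO 1 to 4 and 11.6, 20.3, 17.6 and 18.1 FPKM in DoxSa 1 to 4. DoxSa 1 was the lowest library and DMSO 4 the lowest control, still above every DoxSa value. The log2 difference of DoxSa from DMSO was -0.91 ± 0.15 (SE, 95% interval -1.23 to -0.58), a mean 1.91-fold lower in DoxSa. Only 6 of the 12060 genes lay further below 0. Without DoxSa 1 the difference was -0.75, and it ceased to be called when no FPKM minimum was applied.

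Ccn2 encodes connective tissue growth factor, a matrix-inducing partner of TGF-beta and a standard YAP-TEAD target. It measured 155.3, 164.9, 152.4 and 153.7 FPKM in DMSO 1 to 4 and 95.4, 109.8, 111.5 and 115.5 FPKM in DoxSa 1 to 4. The control values lay close together, and every DoxSa library was well below them. The log2 difference was -0.53 ± 0.05 (SE, 95% interval -0.65 to -0.41), or 1.45-fold lower.

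Ccn1 encodes CYR61, an immediate early matrix protein that binds integrins and shares the YAP-TEAD and SRF inputs of Ccn2. It measured 205.5, 169.7, 189.7 and 170.9 FPKM in DMSO 1 to 4 and 136.3, 154.5, 162.5 and 154.5 FPKM in DoxSa 1 to 4. The gap between the lowest control and the highest DoxSa library was narrow. The log2 difference of -0.27 ± 0.07 (SE, 95% interval -0.42 to -0.12) was about as small as that of Ccn5. Its call was the least stable of the 6. It was not called once DMSO 1 (-0.22) or DMSO 3 (-0.26) was dropped from the controls, nor once DoxSa 1 (-0.22), DoxSa 2 (-0.28) or DoxSa 4 (-0.28) was dropped from the treated libraries. It was not called either without an FPKM minimum or without the intensity trend.

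Ccn4 and Ccn5, formerly Wisp1 and Wisp2, encode CCN proteins linked to WNT signalling, and both have been described as secreted from adipose cells. CCN5 lacks the C-terminal module of the others. Ccn4 measured 14.2, 15.2, 14.5 and 14.1 FPKM in DMSO 1 to 4 and 10.2, 11.9, 10.6 and 11.3 FPKM in DoxSa 1 to 4. Ccn5 measured 142.6, 141.7, 144.1 and 130.7 FPKM in DMSO 1 to 4 and 101.3, 123.7, 119.9 and 114.5 FPKM in DoxSa 1 to 4. For both, DoxSa 1 was the lowest library and the groups were apart. Their log2 differences were -0.38 ± 0.05 (SE, 95% interval -0.48 to -0.27) for Ccn4 and -0.28 ± 0.06 (-0.41 to -0.16) for Ccn5. Ccn5 was not called when no FPKM minimum was applied.

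Thbs1 measured 947.7, 977.6, 906.6 and 913.0 FPKM in DMSO 1 to 4 and 627.6, 668.1, 705.3 and 683.3 FPKM in DoxSa 1 to 4. With 151820 to 226475 reads per library it was also the most precisely counted member. All 4 DoxSa values were well under the lowest control. The log2 difference was -0.48 ± 0.04 (SE, 95% interval -0.58 to -0.39), or 1.395-fold lower. In FPKM its difference was the largest of the members, and the share of all reads taken by Thbs1 was 0.3931% ± 0.01919 in DoxSa.

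Thbs2 encodes the closest relative of thrombospondin 1, a matrix and vessel regulator that lacks the sequence by which thrombospondin 1 activates TGF-beta. It measured 114.9, 112.2, 107.3 and 103.1 FPKM in DMSO 1 to 4 and 119.5, 124.6, 117.4 and 107.9 FPKM in DoxSa 1 to 4. DoxSa 4 lay within the control range and the other 3 above it. Its log2 difference was 0.10 ± 0.05 (SE, 95% interval -0.01 to 0.21), and it was not called. Thbs3, a thrombospondin of the pentameric subgroup, measured 5.69, 5.21, 5.28 and 4.52 FPKM in DMSO 1 to 4 and 4.86, 4.63, 5.13 and 4.92 FPKM in DoxSa 1 to 4. All its DoxSa values lay inside the control range. The log2 difference was -0.07 ± 0.06 (SE, 95% interval -0.20 to 0.06), and it was not called.

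**Figure D2:**
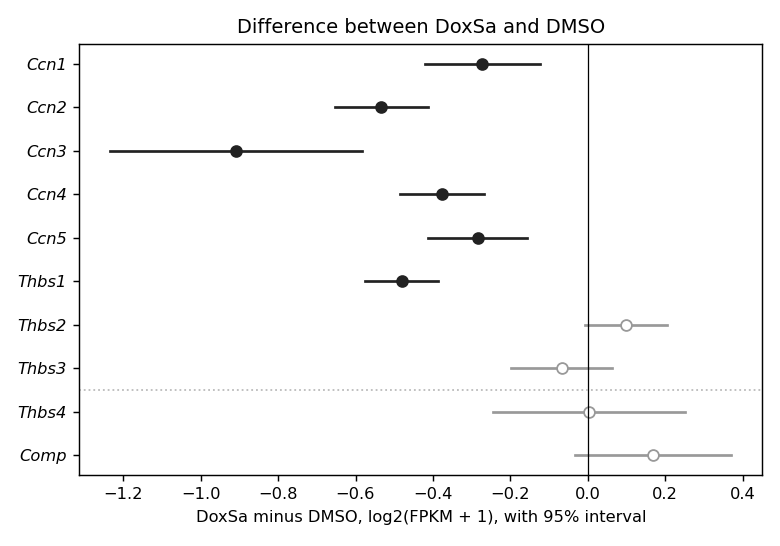
Difference of DoxSa from DMSO on the log2(FPKM + 1) scale for the 8 members and, under the dotted line, the family relatives Thbs4 and Comp. Points are limma estimates with 95% intervals, filled where the gene was called lower, and the 6 filled points run from -0.27 (Ccn1) to -0.91 (Ccn3).

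The remaining relatives did not move with them. Ccn6, the last CCN gene, was listed at 0 in 7 libraries and at 1 read in DoxSa 4, and was not tested. Thbs4 and Comp, which with Thbs3 form the pentameric thrombospondins, were low in both groups. Thbs4 stood at 3.27 ± 0.559 FPKM with DMSO and 3.29 ± 0.644 with DoxSa, and Comp at 5.12 ± 0.913 and 5.83 ± 0.355 (SD, n = 4). Neither was called, with log2 differences of 0.00 ± 0.11 and 0.17 ± 0.09 (SE), and the estimate for Thbs4 changed sign with the scaling (-0.0150 with quantile normalization).

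Ratios within a library show how unequal the differences were. The Thbs1 to Thbs2 ratio was 8.57 ± 0.272 in DMSO and 5.74 ± 0.517 in DoxSa (SD, n = 4), with ranges of 8.246 to 8.854 and 5.251 to 6.332 that did not meet. The Ccn1 to Ccn2 ratio was 1.177 ± 0.1319 in DMSO and 1.408 ± 0.05081 in DoxSa. Its ranges of 1.029 to 1.323 and 1.338 to 1.458 were apart only narrowly. Ccn3 made up 6.11% ± 0.736 of the summed CCN FPKM in DMSO and 4.16% ± 0.659 in DoxSa, again without overlap. The Ccn3 to Ccn2 ratio overlapped between the groups, at 0.1669 to 0.2279 in DMSO and 0.1214 to 0.185 in DoxSa. So did Ccn2 per 100 FPKM of Thbs1, at 16.7 ± 0.228 and 16.1 ± 0.739. How often the ratios of other gene pairs lie apart was not counted.

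Among the treated libraries, DoxSa 1 held the lowest value of the 8 libraries for each of the 6 members called lower. DoxSa 1 was the lowest library for 10.5% of all tested genes and for 57.4% of the 244 genes called lower, so the place of these members in it was shared by many genes of that kind. On the log2(FPKM + 1) scale the difference of Ccn3 from the DMSO mean was -1.39 in DoxSa 1 and -0.83 to -0.63 in DoxSa 2 to 4. For Ccn2 it was -0.71 in DoxSa 1 and -0.51 to -0.44 in the others. Without DoxSa 1, 5 members were called lower, all but Ccn1. With it left out, the differences were -0.48 for Ccn2, -0.34 for Ccn4, -0.23 for Ccn5 and -0.45 for Thbs1.

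**Figure D3:**
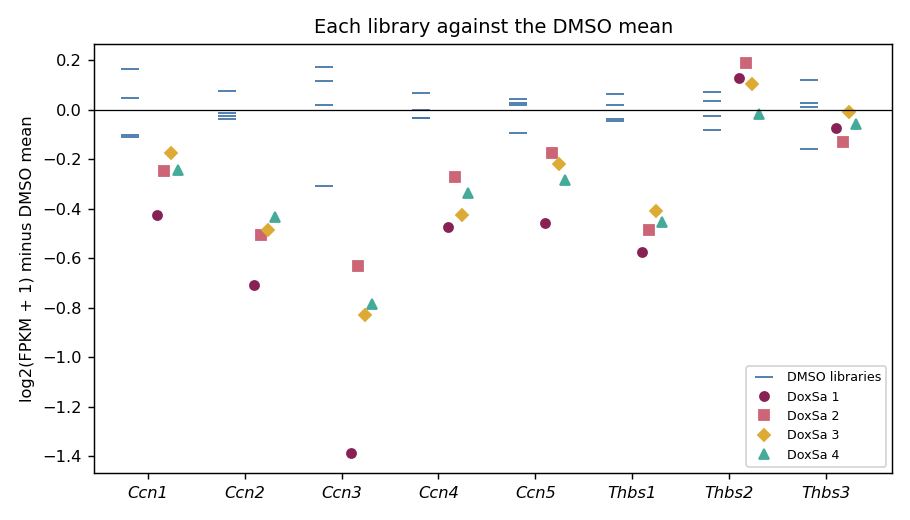
Distance of each library from the mean of the DMSO libraries, on the log2(FPKM + 1) scale, for the 8 members. Dashes are DMSO libraries and symbols DoxSa libraries, and DoxSa 1 is the lowest symbol for Ccn1 to Ccn5 and Thbs1, but not for Thbs2 or Thbs3.

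Over the 8 libraries r is high by selection among the members called lower, since it includes the difference between treatments that they share. Pearson r of log2(FPKM + 1) was 0.990 for Ccn2 with Thbs1 and 0.986 for Ccn3 with Ccn5 (n = 8). After the group means were taken away it was 0.875 and 0.950. Ccn1 with Ccn4 was the loosest of the pairs among the 6, at 0.774 and 0.0972. After that removal the pairs thus ran from 0.0972 to 0.950, with Ccn1 and Ccn2 at 0.381 and Ccn4 and Thbs1 at 0.419. Other gene pairs were not counted for comparison. For Thbs2 with the 6, r was between -0.618 and -0.380 over the 8 libraries, which again includes the difference between treatments. After removal of the group means it was -0.208 with Ccn2 and 0.0566 to 0.310 with the others. These are descriptions of 8 libraries in 2 treatment groups.

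Outside the family, the genes most like Ccn1, Ccn2, Ccn3 and Thbs1 were ranked by Pearson r over the 8 libraries. For Thbs1 they were Pcsk6, a proprotein convertase (r = 0.997), Mrgprf, an orphan receptor (r = 0.994), and Cemip, which encodes a hyaluronan-degrading protein (r = 0.993). For Ccn2 they were the glypican gene Gpc6 (r = 0.996), the metalloproteinase inhibitor gene Timp3 (r = 0.994) and Cemip again (r = 0.993). For Ccn3 they were the calcium channel gene Cacna1a, Tmem119 and Fbln5, an elastic fibre gene (r = 0.989, 0.988 and 0.983). For Ccn1 they were Fndc1, Ckb and Cpxm2 (r = 0.981, 0.979 and 0.978). The highest of many correlations over 8 points are high by selection, and nothing about shared control follows from them.

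Of 22 listed other matricellular genes, 17 were tested, 2 were higher and 1 lower, with a median log2 difference of -0.02. The shares over all tested genes were 3.88% higher and 2.02% lower. Spp1, which encodes osteopontin, a secreted ligand of integrins and CD44, stood at 224 ± 6.09 FPKM with DMSO and at 445 ± 61.5 with DoxSa (SD, n = 4). The log2 difference was 0.98 ± 0.08 (SE, limma adjusted p = 9.53e-05). Its DoxSa values of 518.9, 471.0, 383.4 and 407.4 FPKM all lay above the control maximum of 231.0, opposite in direction to the CCN genes. Fbln5 was lower, at 10.8 ± 0.476 and 8.16 ± 1.10 FPKM (log2 difference -0.38 ± 0.08, limma adjusted p = 0.0168), and was not called without an FPKM minimum. Lgals3, the gene of galectin 3, was higher by 0.18 ± 0.05 (limma adjusted p = 0.0455), a call that 14 of 18 alternative settings ended, among them the removal of any 1 library but DoxSa 4 (0.15 to 0.19). The abundant matricellular genes Sparc, Tnc and Postn were not called, at 2220 and 2154, 157 and 165, and 521 and 489 FPKM in DMSO and DoxSa.

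Of 22 tested receptor and partner genes, 3 were higher and 1 lower, against 3.88% and 2.02% of all tested genes, with a median of -0.02. Cd47, the gene of the thrombospondin receptor that also signals to phagocytes, measured 15.5 ± 0.792 and 17.5 ± 0.269 FPKM (log2 difference 0.16 ± 0.04, SE, limma adjusted p = 0.0377). Itgb3, an integrin subunit that pairs with the alpha v chain to bind CCN proteins and thrombospondins, measured 1.51 ± 0.121 and 2.28 ± 0.378 FPKM (0.38 ± 0.08, limma adjusted p = 0.0178). Calr, the gene of calreticulin, a partner of thrombospondin 1 at the cell surface, was higher by 0.13 ± 0.03 (limma adjusted p = 0.0419), and Hspg2, the gene of perlecan, lower by -0.24 ± 0.06 (limma adjusted p = 0.0482). The alternatives ended the call of Cd47 in 13 of 18 settings, of Calr in 14 and of Hspg2 in 13. With 1 library left out, Cd47 was called only without DMSO 1 (0.14 to 0.17 in the other fits), Calr only without DMSO 4 (0.12 to 0.14) and Hspg2 only without DMSO 3 (-0.27 to -0.19). Itgb3 was not called with no FPKM minimum (0.38), and its mean was too low to be tested at a minimum of 2 FPKM. Without DoxSa 2 its difference was 0.34 and not called, and 0 receptor genes were called higher. Over the 8 fits that left out 1 library, 0 to 2 receptor genes were called higher and 0 to 1 lower. Cd36, the fatty acid transporter and thrombospondin 1 receptor, was not called, at 243 ± 14.6 and 248 ± 18.8 FPKM, with a difference of 0.03 ± 0.06.

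Among 24 tested upstream regulators, 4 were lower and 1 higher, against 2.02% and 3.88% of all tested genes, with a median of -0.01. Tgfb3 stood at 9.14 ± 0.628 FPKM with DMSO and at 6.47 ± 0.482 with DoxSa (SD, n = 4), a log2 difference of -0.44 ± 0.06 (SE, limma adjusted p = 0.00146). Vgll3, a TEAD cofactor gene, differed by -0.23 ± 0.04 (limma adjusted p = 0.00676), Tead1 by -0.23 ± 0.05 (limma adjusted p = 0.0180) and Tead3 by -0.28 ± 0.07 (limma adjusted p = 0.0431). Tgfb1 went the other way, from 49.3 ± 2.34 to 55.7 ± 0.982 FPKM (0.17 ± 0.04, limma adjusted p = 0.0223). Tead1 lost its call when DMSO 2 (-0.20) or DoxSa 2 (-0.21) was left out. Tgfb1 lost it when DoxSa 1 (0.18), DoxSa 2 (0.17) or DoxSa 3 (0.16) was left out, and both lost it when no FPKM minimum was applied. Tead3 lost its call in 9 of 18 settings, and with 1 library left out was called only without DMSO 3 or DoxSa 3 (-0.29 to -0.22 in the other fits). Over those 8 fits, 2 to 4 regulators were called lower and 0 to 1 higher. Of the coactivator transcripts, Yap1 measured 23.8 ± 0.512 and 21.8 ± 0.283 FPKM (-0.12 ± 0.03, limma adjusted p = 0.0570) and was not called. Its groups did not overlap (23.2 to 24.5 FPKM in DMSO and 21.6 to 22.1 in DoxSa). It passed the threshold in 6 alternatives, among them the 3 scalings and voom. Wwtr1, the gene of TAZ, measured 19.6 ± 0.789 and 19.6 ± 0.472 FPKM.

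The list that moved with the CCN genes was that of other widely used YAP-TEAD and SRF-MRTF targets. Of its 16 genes 12 were lower and 0 higher, against 2.02% and 3.88% of all tested genes, with a median log2 difference of -0.35. Some of its falls were known from earlier results of these libraries, and the list is not independent of them. Myl9, a myosin light chain gene, stood at 126 ± 10.02 FPKM with DMSO and at 77.8 ± 3.68 with DoxSa (SD, n = 4), a difference of -0.68 ± 0.06 (SE, limma adjusted p = 9.53e-05). Acta2, the gene of smooth muscle actin, measured 289 ± 19.3 and 184 ± 8.98 FPKM (-0.64 ± 0.05). Actg2 and Cnn1, also of the contractile apparatus, differed by -0.86 ± 0.09 and -1.05 ± 0.12. Ankrd1, a YAP-TEAD target read alongside Ccn1 and Ccn2, was low at 3.51 ± 0.272 and 2.55 ± 0.304 FPKM (-0.35 ± 0.07, limma adjusted p = 0.0147), and was not called without an FPKM minimum. Among the other YAP-TEAD targets, Amotl2 (-0.31), Crim1 (-0.35) and F3 (-0.39) were called lower. Ajuba (-0.20), Axl (-0.02), Tgfb2 (-0.17) and Lats2 (-0.15) were not called, and every listed SRF-MRTF target was called lower. Ajuba and Lats2 came near the threshold (limma adjusted p = 0.0740 and 0.0803). Their groups did not overlap, with DoxSa lower, which held for 4.71% of all tested genes. Over the whole list the count of genes called lower was 12 whichever library was left out, and 13 with quantile normalization or voom. Acta2, Tagln, Cnn1 and Actg2 are at the same time smooth muscle markers. The summed level of those markers moved with the CCN genes, but it is mostly Acta2 and Tagln and so repeats their falls. The part of such cells in the CCN and Thbs1 differences was not tested. Thrombospondin 1 is also stored in platelets, and of 3 platelet genes in the table Pf4, which macrophages express too, was higher in DoxSa (184 and 214 FPKM), while Itga2b and Ppbp stayed under 1 FPKM in every library.

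**Figure D4:**
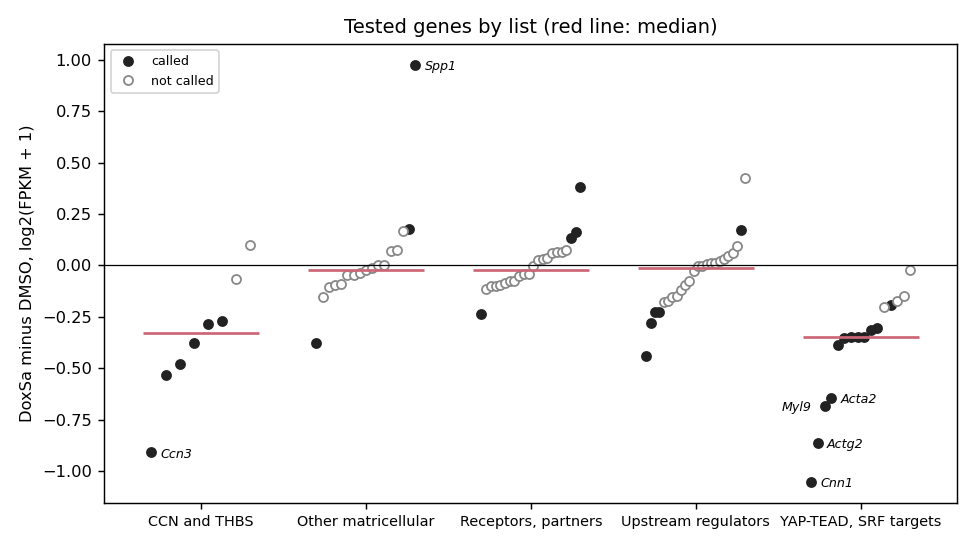
Log2 differences of DoxSa from DMSO for the 8 members and for the tested genes of 4 lists, each list sorted by value, filled where called and with the median as a red line. The medians lie at -0.33 for the members, near 0 for the other matricellular genes, receptors and regulators, and at -0.35 for the YAP-TEAD and SRF-MRTF targets, 2 of which also stand among the regulators.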

How the data were processed

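Poly-A selection, strand and read layout are not stated. Total RNA went into VAHTS Universal V6 libraries after TRIzol extraction, per the labels' protocols. GRCm39, HISAT2 and HTSeq are named per the submitters' processing notes, and versions, annotation and strand setting are not stated, so reads of overlapping genes may be mixed. FPKM for 22962 genes in 8 libraries were deposited, and this unit is not corrected for differences in library composition. Whole reads were recovered from the value steps, and for 12060 of 12060 tested genes all 8 values came out whole (within 0.001 of a whole number).

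Limma 3.58.1 (R 4.3.3) was fitted to log2(FPKM + 1) with an intensity trend and no covariate, on genes whose mean reached 0.5 FPKM, with Benjamini-Hochberg adjustment over all of them and calls at 0.05. Fold changes on this scale understate those of low genes. Tested on simulated data for the comparison of DoxSa with DMSO (12060 genes), the calls recovered 94% of 1.3-fold, 97% of 1.5-fold and 100% of 2-fold changes and included 10 of 11860 unchanged genes. The simulation gave every gene the same spread beyond counting error. In the libraries the spread differed between genes, from 3.52% for Thbs1 to 14.5% for Ccn3 among the members in DMSO. These shares therefore need not hold for widely spread genes such as Ccn3. Libraries within a group all differed by more than sampling noise (lowest chi-square per degree of freedom 5.67). Intervals cover 95%. Python 3.11.15, numpy 2.4.6, pandas 2.3.3 and matplotlib 3.10.9 did the rest. The alternatives were a pseudocount of 0.1, no FPKM minimum or one of 2, 3 scalings, no trend, library weights, voom, a replicate block and each library left out.

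The members and gene lists were chosen with earlier results of these data known. Named genes were all members, the called genes of each list with the smallest adjusted p (at most 4 in the direction with more calls, at most 2 in the opposite one), a panel of Ccn6, Thbs4, Comp, Cd47, Cd36, Yap1, Wwtr1, Tgfb1, Ankrd1 and Acta2, and the 3 protein coding genes most like Ccn1, Ccn2, Ccn3 and Thbs1. Other genes were named after their values were seen (Sparc, Tnc and Postn for their abundance, and markers). Protein sequences were not used here.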

Additional observations from a re-analysis of the deposited data

Results flagged for a closer look

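None of the 16 groups of member values held a library far from the other 3. Among the other named genes 5 values did, of 60 groups examined in all, where chance gives about 1 in 20. In DMSO, Lgals3 was low in DMSO 2 (445 FPKM, others 481 to 486), Fbln5 low in DMSO 4 (10.1, others 11.0 to 11.1), Actg2 high in DMSO 2 (14.5, others 11.3 to 11.5) and Cd36 high in DMSO 4 (264 FPKM, others 234 to 238). In DoxSa, Cd36 was high in DoxSa 1 (275 FPKM, others 235 to 241), and without that library its log2 difference was -0.03 in place of 0.03.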

How the results depend on the processing

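Ccn2, Ccn4 and Thbs1 were called lower in all 18 alternatives, with log2 differences of -0.57 to -0.48, -0.42 to -0.34 and -0.51 to -0.45, and Thbs2 and Thbs3 were called in none. With no FPKM minimum 3 members were called, and Ccn1 (-0.27), Ccn3 (-0.91) and Ccn5 (-0.28) were not. Ccn1 was also not called without the intensity trend (-0.27), and lay between -0.31 and -0.22 with 1 library left out. The labels do not say that a replicate number marks a shared culture, so same-numbered libraries were not taken as pairs. Over all tested genes their deviations correlated at -0.0581, 0.0519, -0.0989 and 0.0654, which cannot speak for single genes. The replicate block made the SE smaller for Ccn3 (0.120 against 0.148) and larger for Ccn1 (0.0718 against 0.0675). With the replicate block Ccn1 was not called (-0.27), the list genes called higher were 3 in place of 6, regulators called lower were 2 in place of 4 (Tead1 at -0.23 and Tead3 at -0.28 lost their calls), Lgals3, Cd47, Calr and Hspg2 were not called, and all calls were 415 higher and 209 lower. Over all genes, 468 were higher and 244 lower, against 158 and 108 with no FPKM minimum and against 508 and 372 by voom on the recovered reads. Left-out libraries gave 234 to 486 higher and 152 to 234 lower. Of the list genes 6 were called higher, 1 with no FPKM minimum, 3 with quantile normalization, median-of-ratios scaling, equal FPKM sums or no trend, and 1 to 4 with a library left out. Scalings moved the median of all genes by under 0.1. Thbs4 changed sign with quantile normalization (-0.0150), median-of-ratios scaling (-0.00885), equal FPKM sums (-0.00688), library weights (-0.0201), voom (-0.0189) and with DMSO 2, DMSO 4, DoxSa 2 or DoxSa 3 left out (-0.0757 to 0.0858 over all 8 left-out libraries). Wwtr1 did so with library weights (0.0124) and with DMSO 4, DoxSa 1 or DoxSa 3 left out (0.0260, 0.0129 and 0.00220, from a lowest of -0.0143), and Cd36 without DoxSa 1 (-0.0254, up to 0.0685 without DMSO 4). The cause was not tested. Depth was lowest for Thbs3, with at least 590 reads per library.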

Other observations

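Other tested genes that carry the members' annotation terms were counted after the values were seen, as a description with no test. Over all 12060 tested genes 3.88% were called higher and 2.02% lower. Of 90 other genes of heparin binding, 13 (14.4%) were higher and 12 (13.3%) lower, and of 98 of integrin binding 13 (13.3%) and 9 (9.18%). Their median log2 differences were -0.02 and 0.03. Of 116 other extracellular matrix genes 11 (9.48%) were higher and 18 (15.5%) lower, and of 289 of cell adhesion 18 (6.23%) and 26 (9%). The counts were 21 (6.93%) and 19 (6.27%) of 303 for calcium ion binding, and 8 (12.9%) and 4 (6.45%) of 62 for negative regulation of angiogenesis. For each of these terms the shares were above those of all genes in both directions.

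Among the pathway labels, 5 (10.9%) of 46 other genes of ECM-receptor interaction were higher and 8 (17.4%) lower. For TGF-beta signaling 5 (6.25%) of 80 were higher and 10 (12.5%) lower, for Wnt signaling 1 (0.847%) of 118 and 6 (5.08%), and for Hippo signaling 3 (3.03%) of 99 and 4 (4.04%). A gene can carry more than 1 term and so enter more than 1 of these counts.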
